A study of Mus musculus with 12 samples.

Results

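The genes described here are 35 cell cycle genes taken by symbol from a gene table of 46297 rows, chosen because dividing progenitors of the olfactory mucosa transcribe them. The table compares 6 samples of olfactory mucosa from male mice carrying a deletion of enhancer A (eA), an element of 912 bp on chromosome 7, with 6 samples from wildtype males. All 12 samples were taken at postnatal day 30 and carry the strain label 129S6;C57BL/6J, and each gave 1 library of total RNA depleted of ribosomal RNA. The series title calls eA an enhancer of class I odorant receptors, and the labels do not say whether 1 or both chromosomes lacked it. Of the 35 genes, 34 had a row of their own and all 34 were abundant enough to test. The row named Kif11 carries the identifier ENSMUSG00000111220.1, which the GENCODE M21 annotation does not hold, and it had 0 reads in 10 libraries and 1 read in each of the other two. The gene for the mitotic kinesin Kif11 itself was not analysed here.

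Olfactory sensory neurons are short-lived and are replaced throughout life from basal cells. Globose basal cells divide and give rise to immature neurons, while horizontal basal cells form a mostly resting reserve beneath them. A dividing cell first loads the MCM helicase on its DNA and copies it in S phase, then builds up cyclin B with its kinase Cdk1, aligns and separates the chromosomes in mitosis, and destroys the cyclins to leave it. Transcripts of these genes are low or absent in resting cells, so in a whole tissue they report mostly on its dividing cells. In such bulk samples, a change in the number of dividing cells and a change in the RNA of each cannot be told apart.

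Values are normalized counts, the authors' read counts divided by a size factor for each library, and changes are log2 ratios of the deletion over wildtype of value + 1, given ± SE. Between 15298151 and 19475332 reads fell on genes in the deletion libraries and between 13011763 and 23039733 in the wildtype libraries. In 4 libraries over 1% of reads came from the satellite gene Gm10800, namely 4.50% and 2.78% in deletion libraries 3 and 6 and 7.80% and 7.01% in wildtype libraries 2 and 3. In the other deletion libraries it took 0.0013% to 0.0103% and in the other wildtype libraries 0.0790% to 0.885%.

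The 34 genes were detected in every library, at levels that differed widely between genes. Per kb of annotated exon, the highest level was that of Pcna, the sliding clamp of DNA polymerase, with 497 ± 46.9 normalized counts per kb in the deletion and 446 ± 70.8 in wildtype (SD, n = 6 each). Top2a, the topoisomerase that untangles replicated chromosomes, followed with 263 ± 22.1 per kb in the deletion and 245 ± 31.6 in wildtype. The helicase subunits Mcm4 and Mcm7 came next, at 148 ± 11.2 and 141 ± 10.4 per kb in the deletion and 146 ± 15.02 and 140.5 ± 12.6 in wildtype. Mki67, the gene of the proliferation antigen Ki-67, stood beside them with 132 ± 11.7 per kb in the deletion and 138 ± 18.7 in wildtype. The ranges of mean ± SD of these last 3 genes overlapped in both groups, and the order among them was not tested. The lowest level was that of Foxm1, a transcription factor of mitotic genes, with 20.3 ± 2.90 per kb in the deletion and 17.2 ± 3.48 in wildtype. The exon length is that of all annotated transcripts together, so a gene with many isoforms is understated.

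**Figure D1:**
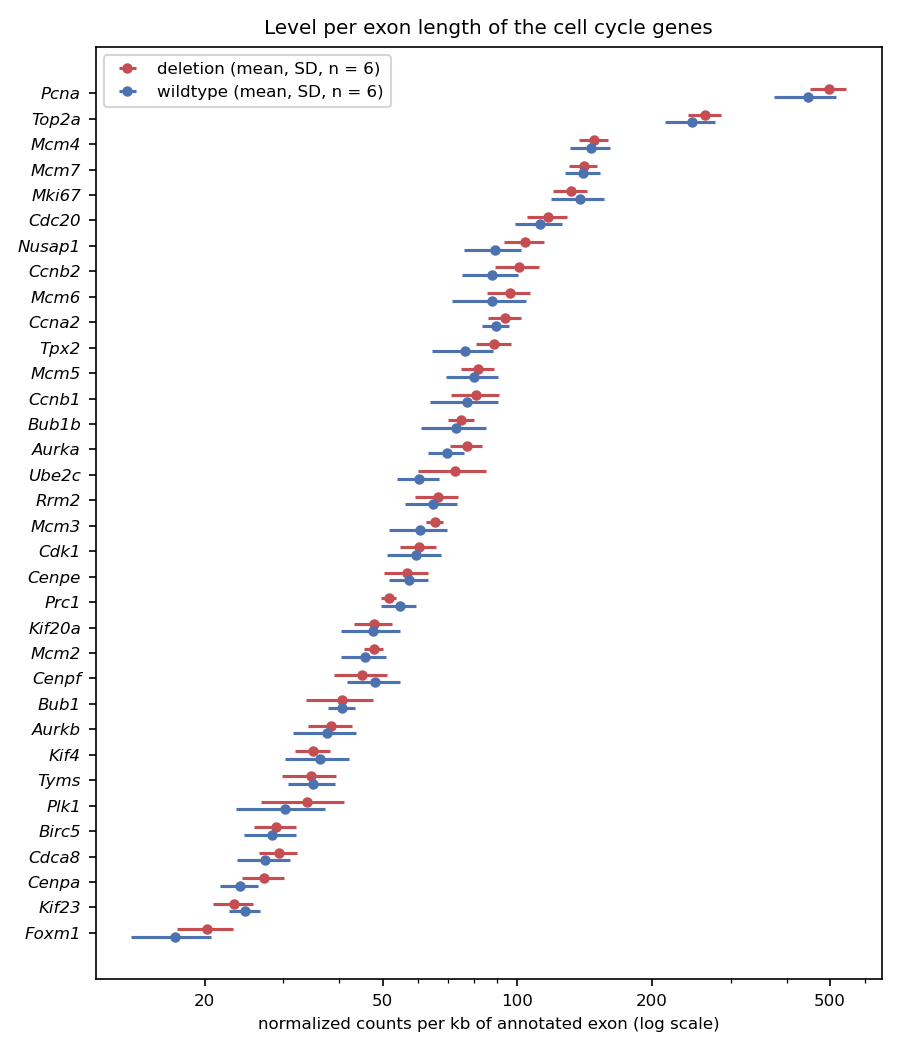
Mean normalized counts per kb of annotated exon (log scale) of the 34 cell cycle genes, ordered by level, in 6 deletion (red) and 6 wildtype (blue) libraries, with SD bars. The genes run over a wide range, with Pcna at 497 and 446 per kb at the top and Foxm1 at 20.3 and 17.2 at the bottom, and the bars of the deletion and wildtype overlap at each gene.

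Most pairs of the 34 genes went up and down together from library to library. Within each genotype, every library's deviation from its group mean was taken for each gene, and the median Pearson's r over the 561 pairs of genes was 0.39, with 85.2% of pairs positive. Over all 187646878 pairs of the 19373 genes tested the median was 0.0027, with 50.3% positive. The median Spearman's rho of the 561 pairs was 0.36. All pairs come from the same 12 libraries and share their depth and scaling, so these values describe the libraries. In the 8 libraries with little Gm10800 signal the median r was 0.34 for pairs of cell cycle genes and -0.0005 for pairs of all genes. The S phase genes and the G2 and M phase genes followed each other (median r 0.41 over 225 pairs) about as they did their own kind (0.44 over 36 pairs and 0.37 over 300 pairs). Following the 34 was not particular to cell cycle genes. Their median r with lists of cell type markers ran from -0.42 (1 muscle marker) to 0.34 (fibroblasts). With other G2 and M phase genes it was 0.26, and with other G1/S and S phase genes 0.16.

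The tightest pair was Ccnb1 and Top2a, with an r of 0.93. Ccnb1 is the cyclin that drives entry into mitosis. Cdk1, the kinase that cyclin activates, and Nusap1, which binds spindle microtubules, likewise had 0.93. Cenpe and Cenpf, proteins of the kinetochore at which the spindle grips each chromosome, had 0.88. Top2a followed the others most closely, with a median r of 0.64, then Tyms, which makes thymidylate for DNA, with 0.61. Cenpa, the centromeric histone variant, and Birc5, or survivin, of the chromosomal passenger complex, did not follow them, with median r of -0.14 and -0.12. The lowest r of a pair was -0.68, for Birc5 and Mcm6. The counting error of Birc5 and Cenpa was 0.15 and 0.12 (log2), against a spread of 0.17 and 0.15 between libraries, and that of Top2a was 0.031 against 0.16. For Aurka and Kif23 it was 0.11 and 0.11 against 0.13 and 0.13, yet their median r was 0.37 and 0.21. Why Birc5 and Cenpa did not follow the others was not tested.

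**Figure D2:**
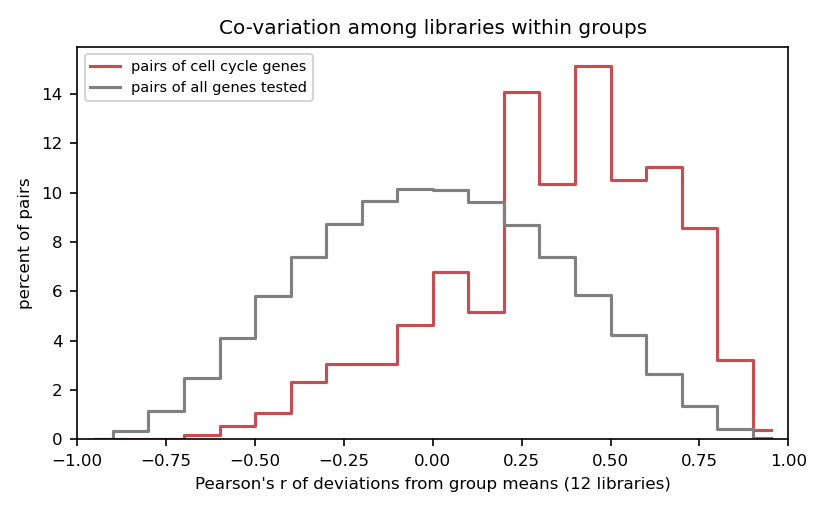
Share of gene pairs (percent) by Pearson's r of their deviations from group means over 12 libraries, for 561 pairs of cell cycle genes (red) and 187646878 pairs of all genes tested (grey). The red line lies to the right of the grey one, with medians of 0.39 and 0.0027.

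A few libraries held most of the extreme values. Wildtype libraries 2 and 3 held the lowest value of the 12 for 14 and 11 of the 34 genes, and both are among the 4 with much Gm10800 signal. Deletion libraries 3 and 6, also among the 4, held the lowest value for 0 and 2 genes. Deletion library 4 held the highest value for 9 genes, and wildtype libraries 6 and 5 for 8 and 7. Both genotypes thus supplied libraries at the upper end, and wildtype libraries 2 and 3 held most of the lowest values.

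**Figure D3:**
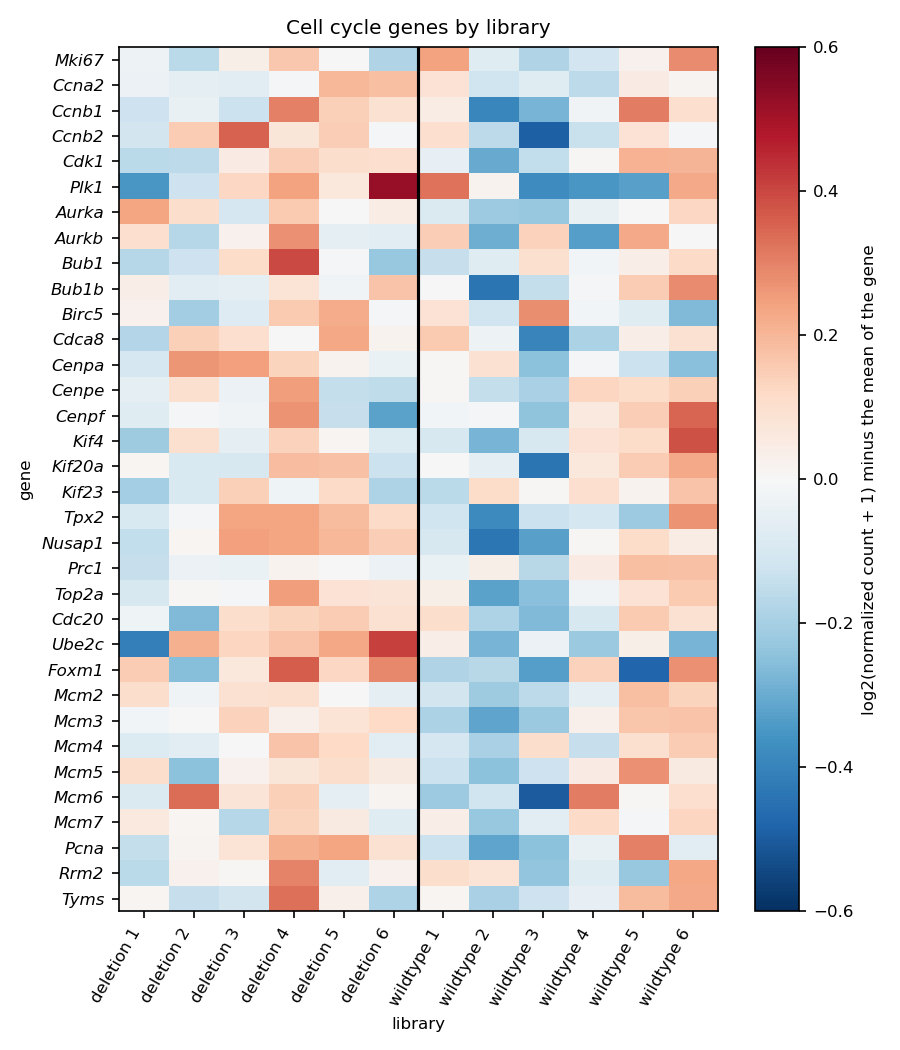
Each cell gives the log2 of (normalized count + 1) of 1 cell cycle gene in 1 library minus the mean of that gene over 12 libraries (red higher, blue lower), with the 6 deletion libraries left of the line and the 6 wildtype libraries right of it. Deletion library 4 and wildtype library 6 are red down most of their columns, and wildtype libraries 2 and 3, lowest for 14 and 11 genes, are mostly blue.

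Promoters of cell cycle genes can carry short elements known to time their transcription. Genes of G2 and M phase are known to be held silent in resting cells by the DREAM complex at the cell cycle homology region (CHR), and are raised in mitosis by factors that act there with NF-Y at CCAAT boxes, while genes of S phase are known to be controlled through E2F sites. RefSeq promoters (GRCm38.p6, 250 bases before to 50 after the start site, 300 in all) were found for 29 of the 35 genes, Kif11 included, and searched on both strands. The letters TTTGAA stood for a CHR. The box of NF-Y was searched by the letters CCAAT that name it. For an E2F site only the letters TTTCCCGC and TTTGGCGC were searched, so other forms of the site would be missed. None of these words contains another. TTTGAA was present in 16 of 21 promoters of G2 and M phase genes (76.2%), in 1 of 8 of S phase genes (12.5%) and in 18.1% of those of all 27025 genes in the table. CCAAT was present in 19 of the 21, in 7 of the 8 and in 37.9% of all. TTTCCCGC or TTTGGCGC was present in 0 of the 21, in 4 of the 8 (Mcm3, Mcm5, Mcm6 and Mcm7) and in 1.63% of all. All 16 promoters of G2 and M phase genes with TTTGAA also held CCAAT, a combination present in 7.12% of all. The median GC content was 58.7% in the promoters of G2 and M phase genes, 57.3% in those of S phase genes and 52.7% in all, and a match of letters is a description of the window and not a bound site.

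Promoters of 5 of the genes are printed 5′ to 3′ on the strand of the gene, with matches to the searched letters in capitals, to show how the layout differs between the stages. Ccnb2 encodes a second mitotic cyclin B, Cdc20 the activator that makes the anaphase-promoting complex destroy cyclins, Plk1 a mitotic kinase, and Mcm5 a helicase subunit. The windows lie for Ccnb2 at chr9:70421505-70421804 (minus strand), Cdc20 at chr4:118437294-118437593 (minus strand), Plk1 at chr7:122159185-122159484 (plus strand), Mcm5 at chr8:75109259-75109558 (plus strand) and Pcna at chr2:132253131-132253430 (minus strand).
Ccnb2: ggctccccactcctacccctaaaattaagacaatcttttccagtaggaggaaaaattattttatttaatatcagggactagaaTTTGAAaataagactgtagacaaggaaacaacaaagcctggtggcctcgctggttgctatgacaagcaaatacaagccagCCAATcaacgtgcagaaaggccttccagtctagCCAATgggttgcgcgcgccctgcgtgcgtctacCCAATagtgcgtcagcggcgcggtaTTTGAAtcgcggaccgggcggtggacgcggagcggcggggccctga
Cdc20: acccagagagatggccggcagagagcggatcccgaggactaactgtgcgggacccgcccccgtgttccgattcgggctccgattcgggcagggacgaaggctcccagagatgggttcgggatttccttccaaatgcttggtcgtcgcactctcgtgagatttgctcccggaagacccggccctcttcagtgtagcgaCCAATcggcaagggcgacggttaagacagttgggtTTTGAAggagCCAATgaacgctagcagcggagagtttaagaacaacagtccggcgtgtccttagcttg
Plk1: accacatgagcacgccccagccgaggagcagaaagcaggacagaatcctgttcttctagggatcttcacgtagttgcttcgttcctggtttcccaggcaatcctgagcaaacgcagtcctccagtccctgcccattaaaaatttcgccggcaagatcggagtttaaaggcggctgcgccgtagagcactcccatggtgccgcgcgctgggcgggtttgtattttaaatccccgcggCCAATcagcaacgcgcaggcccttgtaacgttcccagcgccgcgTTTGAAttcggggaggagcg
Mcm5: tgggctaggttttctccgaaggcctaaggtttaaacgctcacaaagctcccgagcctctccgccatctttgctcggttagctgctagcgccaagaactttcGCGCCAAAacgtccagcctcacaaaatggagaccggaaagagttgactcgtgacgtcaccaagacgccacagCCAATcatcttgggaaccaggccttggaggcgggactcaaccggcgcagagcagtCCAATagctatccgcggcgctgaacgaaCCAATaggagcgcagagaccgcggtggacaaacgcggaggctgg
Pcna: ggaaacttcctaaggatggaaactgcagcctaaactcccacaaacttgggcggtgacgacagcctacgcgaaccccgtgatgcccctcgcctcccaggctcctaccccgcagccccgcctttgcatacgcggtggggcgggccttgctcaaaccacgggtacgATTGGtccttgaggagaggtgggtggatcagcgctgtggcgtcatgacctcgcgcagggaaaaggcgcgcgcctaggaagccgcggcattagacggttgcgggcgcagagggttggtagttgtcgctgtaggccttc
The Ccnb2 window holds 2 matches to TTTGAA and 3 to CCAAT, that of Cdc20 1 and 2, and that of Plk1 1 and 1. The Mcm5 window holds no TTTGAA, 3 matches to CCAAT and 1 E2F site, read on the opposite strand as GCGCCAAA. Of the searched letters, the Pcna window holds only 1 CCAAT box, also on the opposite strand.

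Deletion and wildtype were then compared for each gene. None of the 34 genes passed at an adjusted p under 5% (limma with Benjamini-Hochberg adjustment over 19373 genes), where 0.031% of all genes were called higher and 0.341% lower. At an unadjusted p under 0.05, 2 of the 34 were higher and 0 lower, against 3.49% and 3.2% of all genes, or 6.68% in either direction. The edgeR and DESeq2 tests on reads recovered from the table also called 0 of the 34, with 3 at an unadjusted p under 0.05 in each. In none of the 34 genes were the groups apart, while 0.145% of all genes had every deletion library above and 0.444% every deletion library below the wildtype libraries.

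The 34 estimates ran between -0.10 for Cenpf and 0.25 for Ube2c, with a median of 0.06 against 0.0087 over all genes, and 26 were above 0 and 8 below, where 52.6% of all genes were above 0. The 95% interval of the change lay within 1.5-fold on both sides for all 34 genes, against 74.0% of all genes. The median level was 266 normalized counts for the 34 genes and 243 for all genes tested, and the median spread between libraries of a group was 0.17 and 0.19 (log2). Wildtype libraries 2 and 3, the lowest for most genes, are among the 4 with much Gm10800 signal. Deletion libraries 3 and 6, also among the 4, were not low. The median deviation of the 34 genes from their means over 12 libraries (log2) was 0.031 and 0.017 there. It was -0.19 in both wildtype libraries 2 and 3. Whether Gm10800 signal bears on the cell cycle genes was not tested. In the 8 libraries with little Gm10800 signal, 17 of 34 were above 0 and the median was 0.0027.

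**Figure D4:**
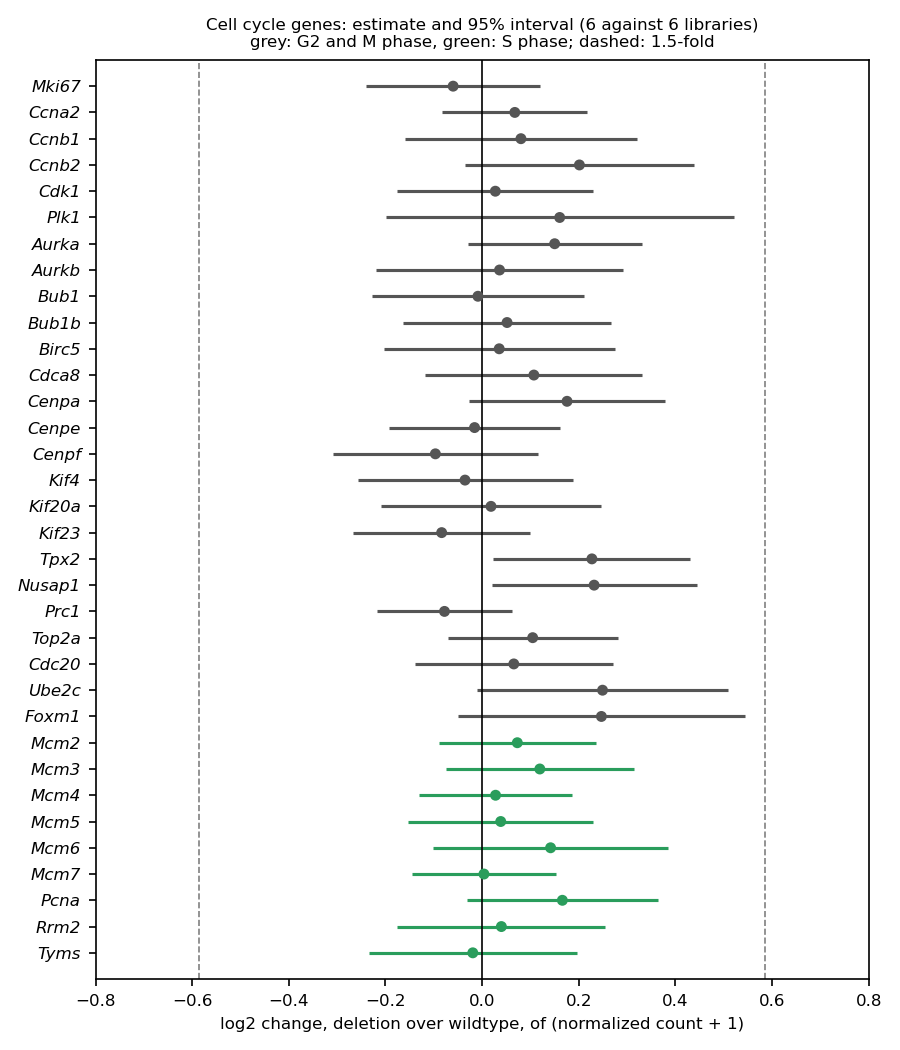
Log2 change of deletion over wildtype (points) with its 95% interval (bars) for 34 cell cycle genes, on the scale of log2 of (normalized count + 1), 6 against 6 libraries, with G2 and M phase genes in grey and S phase genes in green. Estimates lie between -0.10 and 0.25, and all intervals stay inside the dashed lines at 1.5-fold.

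Among the general marks of division, Mki67 (ENSMUSG00000031004.8) had 1191, 1332 and 1507 normalized counts in the lowest, median and highest deletion library, against 1190, 1327 and 1640 in wildtype. Its change was -0.06 ± 0.08 (SE), with a 95% interval of -0.24 to 0.12. Top2a had 2131, 2346 and 2713 in the deletion, against 1824, 2288 and 2542 in wildtype, a change of 0.10 ± 0.08. The groups overlapped over most of their range for both genes, and neither passed (adjusted p 0.885 and 0.803, limma).

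The cyclins and Cdk1 had estimates between 0.03 and 0.20. Ccnb1 had a lowest, median and highest value of 302, 337 and 408 in the deletion, against 252, 333 and 409 in wildtype. For Ccnb2 these were 133, 154 and 183 in the deletion, against 101, 136 and 154 in wildtype. Ccna2, the cyclin of S and G2 phase, had 356, 367 and 429 in the deletion, against 335, 366 and 397 in wildtype, and Cdk1 had 261, 309 and 324 in the deletion, against 237, 289 and 339 in wildtype. The largest of the 4 changes was 0.20 ± 0.11 for Ccnb2 (adjusted p 0.758, limma). The lowest wildtype value of Ccnb2 was that of library 3. The pseudogene Ccnb2-ps had on average 182 normalized counts in the deletion and 199.6 in wildtype, more than Ccnb2 itself, and the value of Ccnb2 is uncertain by how reads were split between the copies. Pcna-ps2 had 43.9 in the deletion and 52.7 in wildtype, while Rrm2-ps1 and Kif4-ps averaged below 2 in both.

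Among mitotic kinases and checkpoint genes, Plk1 gave the least certain value. Plk1, at the lowest counts of the 34, had 54.1, 73.8 and 99.8 in the deletion, against 53.0, 62.5 and 86.9 in wildtype, a change of 0.16 ± 0.17 whose interval reached 0.52. Aurka, which matures the spindle poles, had 173, 195 and 218 in the deletion, against 158, 176 and 202 in wildtype (0.15 ± 0.08, adjusted p 0.765, limma). Aurkb, the kinase of the chromosomal passenger complex, had a change of 0.04 ± 0.12. The spindle checkpoint kinase Bub1 and its relative Bub1b, which hold back anaphase until every chromosome is attached, had -0.01 ± 0.10 and 0.05 ± 0.10. Bub1 averaged 177 ± 30.1 in the deletion and 176 ± 12.1 in wildtype (SD, n = 6 each), with the highest deletion value, 231, in library 4.

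At the centromere, estimates had both signs. Cenpa had 139, 157 and 179 in the deletion, against 125, 142 and 159 in wildtype, a change of 0.18 ± 0.10 (adjusted p 0.751, limma). Cenpf, the gene with the lowest estimate of the 34, had 570, 691 and 859 in the deletion, against 603, 725 and 910 in wildtype (-0.10 ± 0.10). Cenpe, the kinesin motor among them, had -0.02 ± 0.08. Birc5 and Cdca8, or borealin, partners of Aurkb in the chromosomal passenger complex, had 0.04 ± 0.11 and 0.11 ± 0.11. The ranges of all 5 genes overlapped between the groups.

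In the limma fit on all 12 libraries, the 2 genes at an unadjusted p under 0.05 were the spindle genes Tpx2 and Nusap1. Tpx2, which nucleates spindle microtubules and activates Aurka, had 360, 426 and 451 in the deletion, against 294, 351 and 461 in wildtype. Nusap1 had 351, 438 and 460 in the deletion, against 287, 376 and 419 in wildtype. Both changes were 0.23 ± 0.10 with an adjusted p of 0.744 (limma), and 6 of 6 deletion libraries for Tpx2 and 5 of 6 for Nusap1 lay above the wildtype mean. The count of 2 at an unadjusted p under 0.05 became 0 in the 8 libraries with little Gm10800 signal, and likewise without deletion library 4 or 5. It became 1 without deletion library 3 or 6 or wildtype library 2 or 3, 4 without wildtype library 6 and 5 without deletion library 1. Prc1, which bundles microtubules at the spindle midzone, had 395, 424 and 442 in the deletion, against 388, 448 and 493 in wildtype, and 0 of 6 deletion libraries exceeded the wildtype mean, with a change of -0.08 ± 0.07. The kinesins Kif4, Kif20a and Kif23, which act at chromosomes and in cytokinesis, had -0.04 ± 0.10, 0.02 ± 0.11 and -0.08 ± 0.09.

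Ube2c and Foxm1 had the highest estimates of the 34. Ube2c, which joins ubiquitin to the targets of the anaphase-promoting complex, had 128, 195 and 227 in the deletion, against 140, 156 and 175 in wildtype, a change of 0.25 ± 0.12 (adjusted p 0.744, limma). Of its exon bases 22.8% overlap those of Tnnc2 on the other strand, and whether counting used strand is not given in the sources used here. Foxm1 had 88.8, 117 and 137 in the deletion, against 76.0, 93.8 and 129 in wildtype, a change of 0.25 ± 0.14 whose interval reached 0.54, the highest bound of the 34. Cdc20 had 0.07 ± 0.10. In each of the 3 genes the deletion range overlapped the wildtype range.

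The 6 subunits of the MCM helicase, which work as 1 ring, all missed the threshold, and in the fit on all 12 libraries their estimates lay above 0, although that of Mcm7 turned below 0 with TMM scaling, edgeR or DESeq2. Under other alternatives the estimates of Mcm3, Mcm4, Mcm5 and Mcm7 also turned below 0, and those of Mcm2 and Mcm6 did so under none of the 21. Mcm6 had 399, 439 and 536 in the deletion, against 301, 409 and 525 in wildtype (0.14 ± 0.11), and Mcm3 had 233, 245 and 259 in the deletion, against 189, 223 and 265 in wildtype (0.12 ± 0.09). For Mcm2, Mcm5 and Mcm4 the changes were 0.07 ± 0.08, 0.04 ± 0.09 and 0.03 ± 0.07. Mcm7 averaged 623 ± 46.0 in the deletion and 622 ± 55.5 in wildtype (SD, n = 6 each), with an estimate of 0.0037. Of the genes of DNA synthesis, Pcna had 1016, 1193 and 1323 in the deletion, against 902, 1050 and 1383 in wildtype, a change of 0.17 ± 0.09 (adjusted p 0.761, limma). Rrm2, a subunit of the enzyme that makes deoxyribonucleotides, had 0.04 ± 0.10, and Tyms -0.02 ± 0.10.

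Summed over stages, the libraries overlapped in the same way. The 25 genes of G2 and M phase summed to 8994, 9602 and 10863 normalized counts in the lowest, median and highest deletion library, against 8282, 9536 and 10726 in wildtype. The 9 genes of S phase summed to 3858, 4010 and 4455 in the deletion, against 3393, 3873 and 4403 in wildtype. All 34 together made up 0.0750% to 0.0878% of reads in the deletion and 0.0665% to 0.0897% in wildtype. Without the 4 libraries with much Gm10800 signal, the sum over all 34 was 13908 ± 1083 in the deletion and 14046 ± 765 in wildtype (SD, n = 4 each). In those 4 libraries it was 13504 and 13710 in the deletion and 11724 and 11822 in wildtype.

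**Figure D5:**
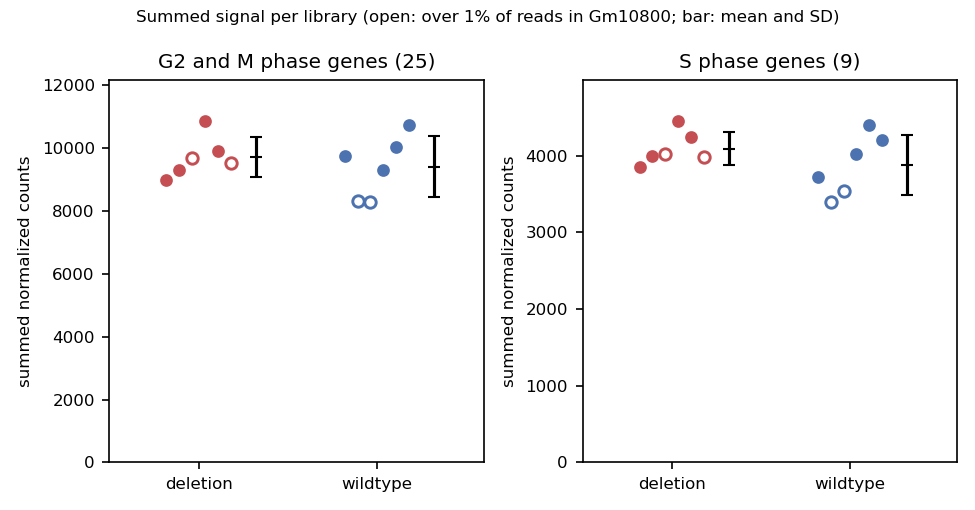
Summed normalized counts per library of 25 G2 and M phase genes (left) and 9 S phase genes (right) in the deletion and wildtype, with open points for the 4 libraries with over 1% of reads in Gm10800 and bars for mean and SD (n = 6). The deletion points lie within the wildtype range except for the highest of each panel, 10863 and 4455, and the open wildtype points are the lowest of both panels.

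Prc1, Plk1 and Mki67 lie on chromosome 7, between 19.6 and 33.2 Mb from the deleted interval, with changes of -0.08, 0.16 and -0.06. The other 31 lie on 15 other chromosomes. Exons of 10 of the 34 genes overlap a gene on the other strand, most for Kif20a with Cdc23, at 29.3% of its exon bases, and 3 overlap a gene on the same strand.

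Of the other cell cycle genes, listed by stage, 93 were tested and none was called. Among these 93, 0 passed (limma, adjusted p under 5% over all genes), with 3 higher and 3 lower at an unadjusted p under 0.05, and edgeR and DESeq2 also called 0, with 8 and 4 at an unadjusted p under 0.05. The median changes were 0.05 for 33 genes of G1/S and S phase, 0.08 for 43 of G2 and M phase and 0.04 for 17 regulators and inhibitors of G1. E2f1, an activating E2F factor, had 63.9, 71.9 and 85.2 in the deletion, against 49.8, 62.7 and 67.4 in wildtype (0.24 ± 0.12). E2f2, another activator, and E2f7, a repressor of the family, had 0.09 ± 0.09 and -0.22 ± 0.13. Mybl2, which acts with Foxm1 at mitotic promoters, had 0.14 ± 0.16, and the checkpoint genes Bub3 and Mad2l1 had 0.07 ± 0.05 and 0.06 ± 0.08. The D cyclins, which carry growth signals to the cycle, had 0.14 ± 0.06 for Ccnd1, 0.15 ± 0.08 for Ccnd2 and 0.07 ± 0.08 for Ccnd3. Hmgb2, a chromatin protein of dividing cells named after its values were seen, had the smallest p of the 93. It had 1070, 1160 and 1407 in the deletion, against 919, 971 and 1117 in wildtype (0.27 ± 0.07, adjusted p 0.28, limma). Estimates of the 93 ran between -0.69 for Orc1 and 0.33 for Kif18b, so the largest change was downward. The genes that follow were also named after their values were seen. The 3 lower at an unadjusted p under 0.05 were Orc1 (-0.69 ± 0.28, adjusted p 0.726, limma), Kif14 (-0.24 ± 0.11) and Lin54 (-0.13 ± 0.06). The 3 higher were Hmgb2, Ndc80 (0.29 ± 0.11) and Ccnd1. Cdc45 and Nek2, also listed, were not analysed here.

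The tissue held the progenitors named in the label, along with other cells that can divide. All 8 listed markers of globose basal cells and neuronal progenitors were abundant enough to test, with 0 called, 6 estimates above 0 and a median of 0.14. At an unadjusted p under 0.05 (limma), 2 of the 8 (Neurog1 and Hes6) were higher and 0 lower, against 3.49% and 3.2% of all genes. The 2 below 0, Ezh2 and Lgr5, had -0.04 ± 0.07 and -0.01 ± 0.13. The summed level of the 8 was 3571, 4245 and 4359 in the lowest, median and highest deletion library, against 3700, 3790 and 3914 in wildtype. Deletion library 1 was below every wildtype library, while the other deletion libraries, at 4201 or more, were above every wildtype library. The difference between the sums was not tested. Neurog1, which marks progenitors on the way to neurons and is named here after its values were seen, had 57.7, 84.0 and 97.6 in the deletion, against 45.9, 57.1 and 72.6 in wildtype (0.51 ± 0.15, adjusted p 0.484, limma). Its upper deletion libraries exceeded every wildtype library, but the change did not pass.

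Markers of other cell types moved with the cell cycle genes to different degrees. The median r of within-group deviations with the 34 genes was 0.15 for the progenitor markers, 0.33 for 5 horizontal basal cell markers, 0.29 for 4 of supporting cells and 0.34 for 4 of fibroblasts, against 0.020 for all genes. It was 0.26 for 43 other G2 and M phase genes, 0.16 for 33 other G1/S and S phase genes and 0.13 for 17 regulators and inhibitors of G1. For 5 markers of granulocyte precursors it was -0.20 and for 5 of erythroid precursors -0.24. These values share the same 12 libraries, and the differences between them were not tested. Blood cell precursors divide in the marrow of nearby bone, and their defining markers Elane (granulocyte precursors) and Vpreb1 (B lymphocyte precursors) were low. Elane was at 0.926 to 14.4 in the deletion and 0 to 10.8 in wildtype, and Vpreb1 at 0 to 3.52 in the deletion and 1.35 to 6.504 in wildtype. Of the listed markers, 4 of 9 for granulocyte precursors, 6 of 8 for B lymphocyte precursors and 3 of 8 for erythroid precursors had a mean below 10. The summed levels of the granulocyte, B lymphocyte and erythroid lists were 3212 to 11304, 5166 to 5887 and 121 to 234 in the deletion, against 3967 to 6827, 5178 to 6106 and 124 to 307 in wildtype. Most of the granulocyte sum came from Ltf, which gland cells also secrete, and most of the B lymphocyte sum from Ebf1, which olfactory neurons also express.

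The remaining lists had 0 called genes (limma, adjusted p under 5%), and their medians had both signs. Estimates were above 0 for 0 of 6 markers of immature neurons (median -0.04), with -0.01 ± 0.11 for Gap43, and for 6 of 6 of mature neurons (median 0.08), with 0.07 ± 0.10 for Omp. They were above 0 for 4 of 5 of horizontal basal cells (median 0.09), with 0.09 ± 0.13 for Krt5, and for 3 of 4 of supporting cells (median 0.11), with 0.11 ± 0.09 for Cyp2g1 and 1 other marker higher at an unadjusted p under 0.05. Among ciliated cell markers 1 of 4 was above 0 (median -0.15): Foxj1 had 0.08 ± 0.08, while 2 of the other markers were lower at an unadjusted p under 0.05. Among immune cell markers 3 of 5 were above 0 (median 0.06), although Ptprc of leukocytes had -0.20 ± 0.10. Of the blood cell precursors, 2 of 5 granulocyte markers (median -0.33), 1 of 2 B lymphocyte markers (median -0.02) and 0 of 5 erythroid markers (median -0.31) were above 0, and 2 of the erythroid markers were lower at an unadjusted p under 0.05. For bone 4 of 6 were above 0 (median 0.19), with 0.26 ± 0.27 for Bglap. All 4 markers were above 0 for endothelium (median 0.22), with 0.15 ± 0.14 for Pecam1, and for fibroblasts (median 0.15), with 0.18 ± 0.24 for Col1a1. Acta1, the only muscle marker tested, had -0.05 ± 0.36. Over all genes the median was 0.0087. The parts of these cell types in the values of the cell cycle genes were not tested. In the authors' deposited table, the smallest adjusted p among the 34 genes was 0.823, for Nusap1.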

How the data were processed

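Sequencing used olfactory mucosa RNA of 6 deletion and 6 wildtype samples, made into libraries with a stranded kit after ribosomal RNA depletion, per the labels' protocols. STAR 2.6.0, DESeq2 and GRCm38.p6 appear in the submitters' processing notes. No source used here gives the read counter, the annotation or whether counting used strand. The authors deposited 1 table of 46297 rows. Per the file headers it holds a normalized count per library (a signal, reads divided by a size factor), log2 fold changes of wildtype over deletion, a test statistic (a score), p-values and adjusted p-values. The names of the 12 columns gave their samples, and 0 pairs of libraries were identical. At least 99.9% of entries per library are whole multiples of 1 read (within 0.01), so reads were recovered, 13011763 to 23039733 per library.

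Deletion was tested over wildtype on log2(value + 1) with limma 3.58.1, letting the variance follow the mean, over the 19373 genes averaging at least 10, and Benjamini-Hochberg adjustment at 5%. The pseudocount slightly understates changes of low genes. Alternatives included edgeR 4.0.16 and DESeq2 1.42.0 on recovered reads, other filters and scalings, and leaving out libraries. R 4.3.3 and Python 3.11.15 were used, and the fits were tested on simulated data. Of 50 genes each, drawn from all genes tested and simulated at 1.5, 2 and 4-fold, limma called 56%, 76% and 98%. At 0.25-fold it called 96% of 50, so many changes of 1.5-fold would be missed. Exon lengths, positions and overlaps come from GENCODE M21, and promoters from RefSeq, 1 per gene. The genes and lists were chosen with earlier results of these data known, as was the rule for naming genes (all 35, the first 3 of each other cell cycle list, the first of each cell type list, and any past 5%). The first genes of 2 cell type lists are not reported here. The labels do not say that each sample is a separate animal, so p-values measure the spread between these samples.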

Additional observations from a re-analysis of the deposited data

Results flagged for a closer look

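In 3 of the 70 sets of 6 libraries examined (each gene's deletion or wildtype libraries, and summed values), 1 library lay far from the other 5, where chance gives about 1 in 20. Mcm5 was lowest in deletion library 2, at 271 normalized counts with the nearest other library at 327, a gap of 0.742 of the range of the group. Rrm2 was highest in deletion library 4, at 222 against 184 in the nearest, a gap of 0.632. Tpx2 was highest in wildtype library 6, at 461 against 356, a gap of 0.626.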

How the results depend on the processing

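Under all 21 alternatives, 0 of the 34 cell cycle genes and 0 of the 93 other cell cycle genes passed at an adjusted p under 5%, with 0 to 5 of the 34 higher and 0 lower at an unadjusted p under 0.05, and the smallest adjusted p of the 34 was between 0.289 and 1.000. The median of the 34 changes was 0.0027 without the 4 libraries with much Gm10800 signal, and 0.025 to 0.092 when 1 library was left out, lowest without wildtype library 2. DESeq2 and the fit with no filter moved the median of all genes to -0.16 and -0.12, with medians of 0.05 and 0.06 for the 34. The labels do not say whether the replicate numbers pair the libraries. Correlations of same-numbered deviations lay between -0.15 and 0.36, which cannot decide it. With the replicate block 0 of the 34 passed, with 3 at an unadjusted p under 0.05 (limma) and a median of 0.06.

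The sign turned under at least 1 alternative for 18 of the 34 genes and under none for 16. No turned estimate passed, and the largest reported change among the 18 was 0.16. Mcm7 became -0.0018 with DESeq2, -0.0031 with TMM scaling, -0.0056 with edgeR and -0.012 with the granulocyte markers as a covariate, and Kif20a became -0.00073 with edgeR. With that covariate Cdk1, Kif20a and Mcm4 became -0.023, -0.012 and -0.0062. Without the 4 libraries with much Gm10800 signal, Ccnb1 was -0.038, Cdk1 -0.11, Plk1 -0.011, Bub1 0.023, Bub1b -0.098, Kif20a -0.042, Top2a -0.0019, Cdc20 -0.064, Mcm3 -0.021, Mcm5 -0.054 and Mcm7 -0.0060. When 1 library was left out, Cdk1 lay between -0.031 and 0.072, Aurkb between -0.026 and 0.085, Bub1 between -0.088 and 0.036, Bub1b between -0.031 and 0.113, Birc5 between -0.014 and 0.095, Cenpe between -0.067 and 0.014, Kif4 between -0.095 and 0.037 and Kif20a between -0.068 and 0.066. Likewise Mcm4 lay between -0.0087 and 0.061, Mcm5 between -0.0069 and 0.097, Mcm7 between -0.042 and 0.038, Rrm2 between -0.015 and 0.090 and Tyms between -0.088 and 0.024. The causes were not tested. Counting error had a median of 0.09 (log2) for the 34 genes against a spread of 0.17 between libraries.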
